A study of Mus musculus with 2 samples.

Results

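Type I interferon-stimulated genes are described here across the leukocytes of livers with diet-induced steatohepatitis, as a set of 42 listed gene symbols. All 42 were found among the 32285 genes counted. The members were found by their symbols in the list of genes counted. Recipients were male C57BL/6J mice whose own marrow had been destroyed by irradiation and replaced by that of Trem2-/- donors or of their Trem2+/+ littermates. Both groups then had 6 weeks of recovery and 4 weeks of methionine- and choline-deficient feeding, which makes the liver fatty and inflamed. Live CD45+ cells, meaning leukocytes that excluded the dye 7AAD, were sorted after enzymatic digestion, and equal parts from 4 mice of a group were combined into 1 droplet library with 5′ transcript tags. TREM2 is a lipid-sensing receptor of macrophages. Radioresistant cells of the recipient, such as the sinusoidal endothelium and some Kupffer cells, keep the recipient's own Trem2, so only marrow-derived cells differ in genotype between the groups. With 1 library per group there is no replicate error. The intervals given below are 95% intervals that cover counting error only, and every difference is one between 2 libraries of pooled mice.

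Type I interferons (interferon-alpha and interferon-beta) bind a receptor made of IFNAR1 and IFNAR2. The receptor activates the kinases JAK1 and TYK2, which phosphorylate transcription factors such as STAT2. STAT2 joins IRF9 in a complex that binds interferon-stimulated response elements in the promoters of target genes. The targets include proteins that bind or destroy viral RNA, sensors of nucleic acid that raise further interferon, and brakes on the pathway. Interferon-gamma, made chiefly by T cells and natural killer cells, acts through another receptor, and induces an overlapping but distinct set of genes led by guanylate-binding proteins.

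Promoters of 5 members are shown so that the letters they share can be seen. The sequences are the 200 bases before the start site annotated by RefSeq in GRCm38.p6, written 5′ to 3′ on the strand of the gene, with matches to the response element letters in capitals. The element was searched as GAAA, any 2 letters, then GAAA, on both strands, so that matches also appear as TTTC, any 2 letters, TTTC. Ifit1 (chr19:34640689-34640888, plus strand), Ifit3 (chr19:34583329-34583528, plus strand), Ifit3b (chr19:34607757-34607956, plus strand), Isg15 (chr4:156200819-156201018, minus strand) and Rsad2 (chr12:26456453-26456652, minus strand) are given as members that hold a match.
Ifit1: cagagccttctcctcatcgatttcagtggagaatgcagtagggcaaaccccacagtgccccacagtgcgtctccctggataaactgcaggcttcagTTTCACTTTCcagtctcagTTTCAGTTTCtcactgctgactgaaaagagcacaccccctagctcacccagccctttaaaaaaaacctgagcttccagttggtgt
Ifit3: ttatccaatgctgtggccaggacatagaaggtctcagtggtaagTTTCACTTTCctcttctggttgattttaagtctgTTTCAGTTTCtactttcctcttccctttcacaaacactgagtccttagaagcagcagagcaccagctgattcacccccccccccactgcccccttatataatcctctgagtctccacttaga
Ifit3b: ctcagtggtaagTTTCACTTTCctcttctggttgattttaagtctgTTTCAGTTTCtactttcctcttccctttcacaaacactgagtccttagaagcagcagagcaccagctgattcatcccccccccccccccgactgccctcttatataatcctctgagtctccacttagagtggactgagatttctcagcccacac
Isg15: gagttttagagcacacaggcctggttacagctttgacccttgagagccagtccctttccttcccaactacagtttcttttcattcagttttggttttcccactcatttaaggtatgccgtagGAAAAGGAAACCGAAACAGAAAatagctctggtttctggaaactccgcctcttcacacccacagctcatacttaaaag
Rsad2: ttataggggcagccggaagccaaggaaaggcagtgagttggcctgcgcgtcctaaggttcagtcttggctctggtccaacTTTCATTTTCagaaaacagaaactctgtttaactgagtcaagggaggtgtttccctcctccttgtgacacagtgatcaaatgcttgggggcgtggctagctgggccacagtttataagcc

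The 3 IFIT promoters carry the same pair of matches in the same order, and Isg15 carries 3 overlapping matches in 1 run of capitals. Over the window from 250 bases before to 50 after the start, RefSeq promoters were found for 34 of the 42 members. Of those 34, 17 held the response element letters, against 3.99% of 27025 genes with a promoter in the table. The gamma-activated sequence letters TTCNNNGAA were in 6 of the 34 (17.6%), against 9.55% of all genes. Cmpk2 and Ifit2, members with low ratios in neutrophil-like cells below, had no match in this window. These are matches of letters and not measured binding sites.

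The libraries held 6362 barcodes from Trem2-/- recipients and 7012 from Trem2+/+ recipients, with 25288032 and 27238586 deduplicated transcript counts (UMIs). Of these, 5973 cells of the Trem2-/- library and 6596 of the Trem2+/+ library were kept, at medians of 2932 and 2492 UMIs per cell. Trem2 itself had 154 UMIs in the Trem2-/- library and 5478 in the Trem2+/+ library, or 6.19 against 204 CPM (UMIs scaled to a common library total). Trem2 UMIs of the Trem2-/- library lay mostly in macrophage-like cells (85) and Kupffer-like cells (47), where the Trem2+/+ library had 4346 and 675. The libraries shared 56 barcode sequences, and the doublet caller marked 0.0786% and 0.0285% of barcodes, too few to have worked, so the kept cells still hold doublets. Cells formed 28 clusters, of which 24 could be named by markers into 15 classes, each called by its likeness to a cell type. Endothelial-like cells were among them although the sort was for CD45. A level below is a gene's summed UMIs in a class and library, as CPM of all UMIs of that class and library. A 5′ tag is counted once per transcript, so levels were not divided by gene length.

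The members together made up 0.439% of all UMIs in the Trem2-/- library and 0.502% in the Trem2+/+ library. Among the 10 classes that held 100 or more cells per library, their summed level was highest in Ly6C-high monocyte-like cells, at 8550 CPM in the Trem2-/- library and 8984 CPM in the Trem2+/+ library. Kupffer-like cells, the resident macrophages of the liver, had 7491 and 8683 CPM, and endothelial-like cells 6290 and 7573 CPM in the same order. B cell-like and NK/ILC1-like cells had the lowest sums of these classes, between 1679 and 1780 CPM. The order at the top rested on the 3 most abundant members, Ifitm3, Ifi27l2a and Bst2. Without these, neutrophil-like cells were highest, at 4205 CPM in the Trem2-/- library and 5508 CPM in the Trem2+/+ library. Kupffer-like cells then had 3821 and 4340 CPM, and Ly6C-high monocyte-like cells 3221 and 3216 CPM.

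Each member had its own distribution over the classes, as the heat map of levels shows. By the mean of both libraries, Kupffer-like cells were highest of the 10 classes for 18 members, neutrophil-like cells for 11, endothelial-like cells for 4 and Ly6C-high monocyte-like cells for 3. The 18 included Irf7, the transcription factor that amplifies interferon production, at 404 CPM in the Trem2-/- library and 461 CPM in the Trem2+/+ library, and Lgals3bp, a secreted glycoprotein, at 388 and 396 CPM. The 11 of neutrophil-like cells included Isg15, Rsad2, Oasl2 and the Schlafen genes Slfn1, Slfn2 and Slfn4. In each library singly, the same class was highest for 13 of the 18 and 9 of the 11, and Cmpk2 and Ifit3b were the exceptions in neutrophil-like cells.

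**Figure D1:**
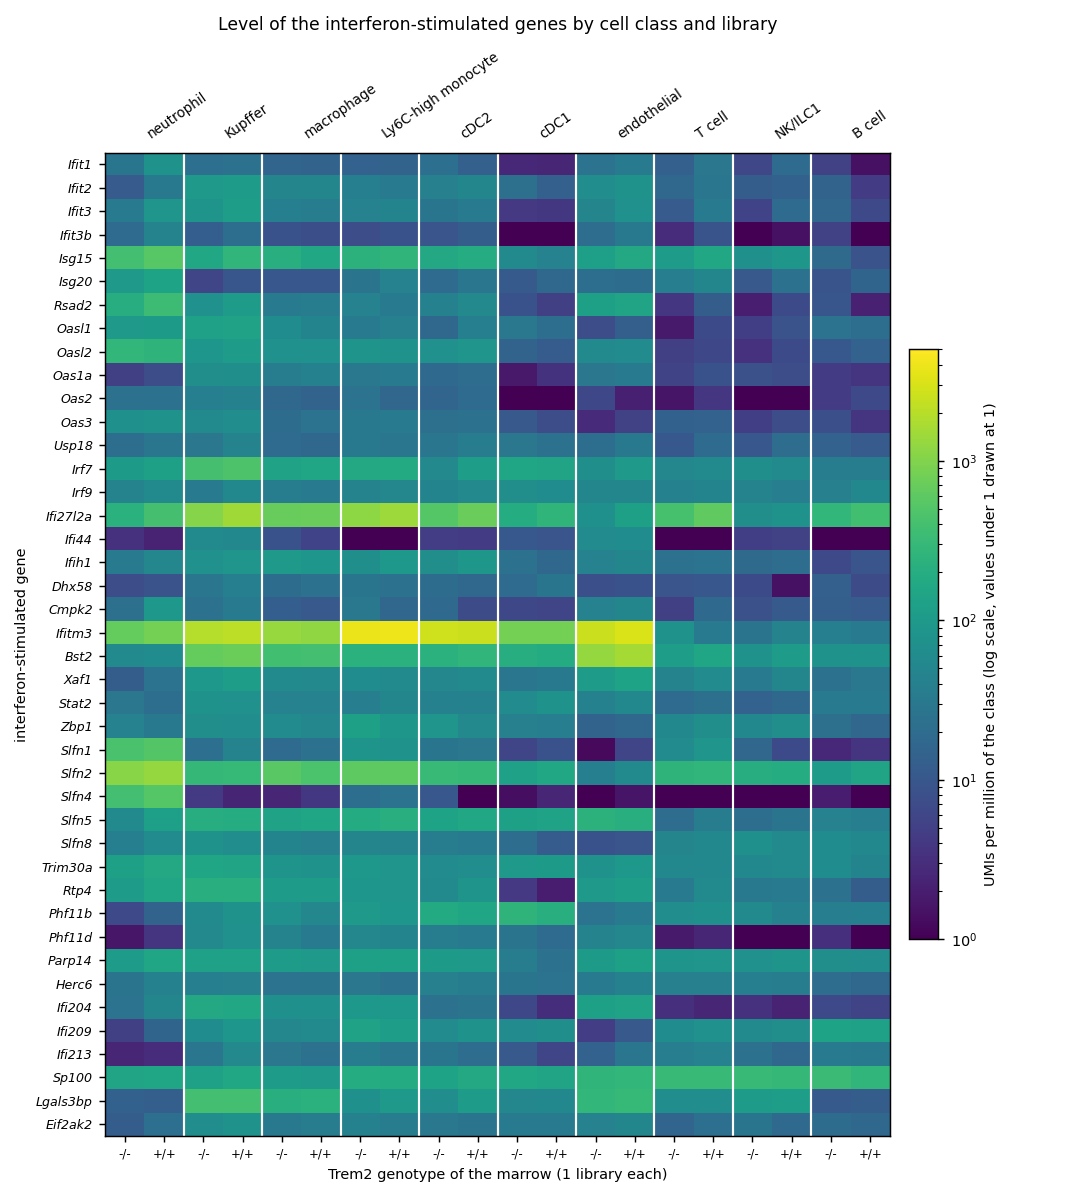
Heat map of the level of 42 interferon-stimulated genes (rows) in 10 cell classes (columns, Trem2-/- library left of the Trem2+/+ library in each pair), as CPM of the class on a log color scale. Ifitm3 is bright in monocyte-like and endothelial-like cells, and Slfn4 stands out in neutrophil-like cells, at 386 CPM in the Trem2-/- library and 537 CPM in the Trem2+/+ library.

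The 3 most abundant members were Ifitm3, Ifi27l2a and Bst2, all genes of small membrane proteins. Ifitm3, which blocks fusion of virus with the endosome, reached 3917 CPM in the Trem2-/- library and 4091 CPM in the Trem2+/+ library in Ly6C-high monocyte-like cells, and was at 26.6 and 45.5 CPM in NK/ILC1-like cells. Bst2, the tether that holds budding virus at the cell surface, was at 3911 and 3464 CPM in plasmacytoid dendritic-like cells of the Trem2-/- and Trem2+/+ libraries, which had only 40 and 45 cells. Slfn4 was nearly restricted to neutrophil-like cells, at 386 CPM in the Trem2-/- library and 537 CPM in the Trem2+/+ library. The next class for Slfn4, Ly6C-high monocyte-like cells, had 21.5 and 25.5 CPM.

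The genotypes were compared gene by gene within each class, as the log2 ratio of the Trem2-/- library over the Trem2+/+ library. A gene entered where its mean level over both libraries was at least 20 CPM, and it was counted as higher or lower when the ratio was at least 1.5-fold. Neutrophil-like, endothelial-like, T cell-like, cDC2-like and Kupffer-like cells had member medians below that of all genes at the same level by more than 0.15, and NK/ILC1-like, macrophage-like, Ly6C-high monocyte-like, B cell-like and cDC1-like cells did not. Over the 10 classes, 300 pairs of member and class entered. Of these, 32 were at least 1.5-fold lower in the Trem2-/- library and 4 at least 1.5-fold higher, where 2.25% and 3.25% of all genes were over the same classes. The interval of the ratio lay below 0 in 78 pairs and above 0 in 15, and such intervals were not counted over all genes. Of the pairs counted, 7 of the 32 lower and 2 of the 4 higher were under 20 CPM in 1 library and entered only through the library where they were high, so they had to differ. The plot of ratios by class shows the spread of single members around each median.

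**Figure D2:**
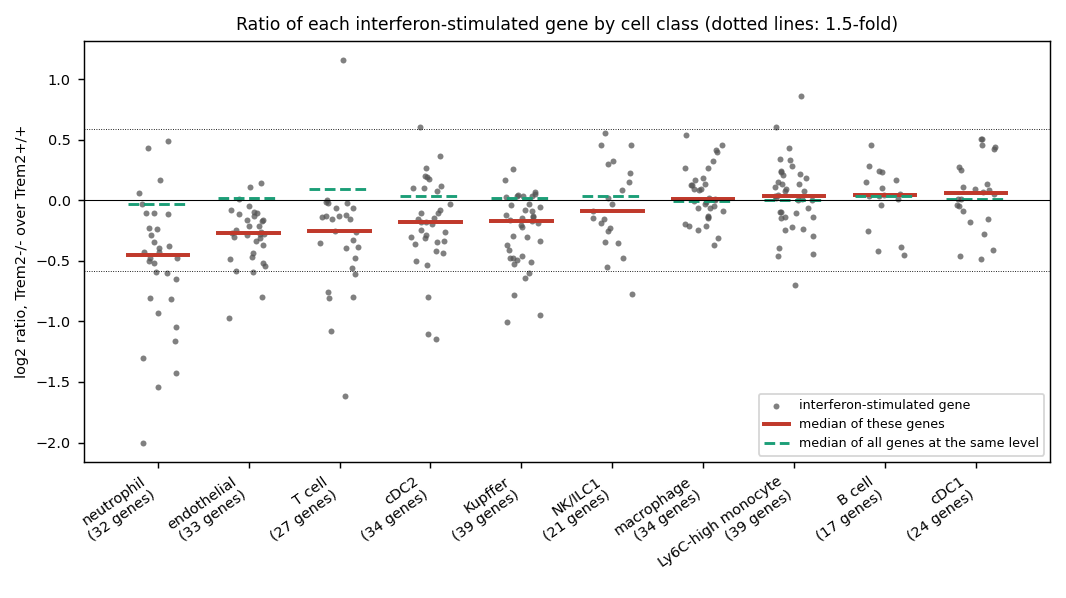
Log2 ratio of the Trem2-/- library over the Trem2+/+ library (vertical axis) for each interferon-stimulated gene at a mean of 20 CPM or more (points) in 10 cell classes, with the median of these genes (red bar) and of all genes at that level (green dashes). In neutrophil-like cells the median was -0.45, against -0.03 for all genes, and in macrophage-like cells 0.01, against -0.01.

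Neutrophil-like cells had the lowest member median of the 10 classes. Of the 42 members, 32 passed the level filter, and their median log2 ratio was -0.45, against -0.03 for all 3903 genes at that level. Of the 32, 12 were at least 1.5-fold lower in the Trem2-/- library, where 5.25% of all genes were, and 0 were at least 1.5-fold higher, where 3.66% of all genes were. The ratio was below 0 in 28, where 53.9% of all genes were. Its interval lay wholly below 0 in 20, a count that was not taken over all genes. The other 10 members (Oas1a, Ifi44, Dhx58, Xaf1, Phf11b, Phf11d, Ifi209, Ifi213, Lgals3bp and Eif2ak2) were under 20 CPM. With no minimum level, all 42 members had a median of -0.48. Summed over the members, neutrophil-like cells had 5155 CPM in the Trem2-/- library and 6810 CPM in the Trem2+/+ library, which is a log2 ratio of -0.40 (-0.45 to -0.36).

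The IFIT proteins, which bind viral RNA with foreign ends, were lower as a group in neutrophil-like cells, all 4 by at least 1.5-fold. Ifit1 had 33 UMIs (27.4 CPM) in the Trem2-/- library and 107 (79.6 CPM) in the Trem2+/+ library, which is a log2 ratio of -1.54 (-2.15 to -0.97). Ifit3 had 41 UMIs (34.0 CPM) against 113 (84.1 CPM), a ratio of -1.31 (-1.86 to -0.78). Ifit2 and Ifit3b had ratios of -1.43 and -1.16, and were under 20 CPM in the Trem2-/- library, so that they passed the filter through the Trem2+/+ library. These genes lie together on chromosome 19, and Ifit3 and Ifit3b are near copies. Of the 60-base windows in the first 500 bases of the transcript, 49.6% of those of Ifit3 occur in Ifit3b too, and 32.8% of those of Ifit1 occur in Ifit1bl2, so their reads may be split or lost.

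Cmpk2, a mitochondrial nucleotide kinase, and Rsad2, the enzyme viperin that makes a chain-terminating nucleotide, are neighbours on chromosome 12. Cmpk2 had the lowest ratio of the 32 members, with 28 UMIs (23.2 CPM) in the Trem2-/- library and 125 (93.0 CPM) in the Trem2+/+ library, or -2.001 (-2.65 to -1.40). Rsad2 had 239 UMIs (198 CPM) against 469 (349 CPM), or -0.82 (-1.05 to -0.59). Isg20, a nuclease of single-stranded RNA, was at 97.1 against 139 CPM, or -0.52 (-0.87 to -0.18), short of 1.5-fold.

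Isg15, a ubiquitin-like protein that is attached to other proteins, was at 387 CPM in neutrophil-like cells of the Trem2-/- library and 538 CPM in those of the Trem2+/+ library, or -0.48 as a log2 ratio (-0.65 to -0.31). Herc6, its ligase in the mouse, had -0.65 (-1.32 to 0.00), and Usp18, which removes it and restrains the interferon receptor, had -0.39 (-1.17 to 0.37), on 26 against 38 UMIs. All 5 Schlafen genes were below 0. Slfn5 was the lowest of them, at 59.8 CPM in the Trem2-/- library and 124 CPM in the Trem2+/+ library (-1.05, -1.47 to -0.64), and Slfn4 had -0.48 (-0.65 to -0.31).

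The remaining groups of members were mixed in neutrophil-like cells. The oligoadenylate synthetase family, some of whose enzymes make products that activate the nuclease RNase L, had a median of -0.02 over 4 genes. Oasl2, a family member with ubiquitin-like domains, was at 284 CPM in the Trem2-/- library and 252 CPM in the Trem2+/+ library, or 0.17 (-0.05 to 0.39). Irf7 had -0.28 (-0.63 to 0.06), Irf9 -0.37 (-0.90 to 0.15), and Stat2 0.43 (-0.32 to 1.19) on 35 against 29 UMIs. The 3 sensors that passed had a median of -0.59, with 2 at least 1.5-fold lower. Among them, Ifih1 (MDA5, which detects long double-stranded RNA) had -0.59 (-1.19 to -0.02), and Zbp1, which detects left-handed nucleic acid and can start cell death, had 0.49 (-0.12 to 1.11). Ifi204, a DNA sensor of the AIM2-like family, had -0.93, but 82.2% of the first windows of its transcript occur in other genes, such as Ifi211 and Mndal.

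**Figure D3:**
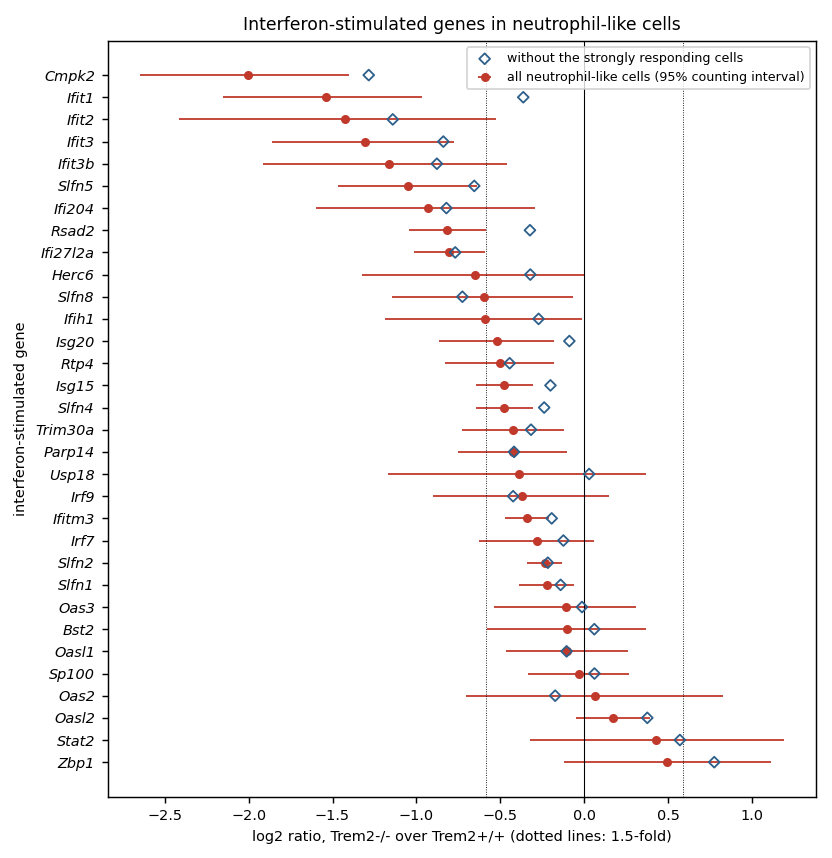
Log2 ratio of the Trem2-/- library over the Trem2+/+ library (horizontal axis) for the 32 interferon-stimulated genes at a mean of 20 CPM or more in neutrophil-like cells, with 95% counting intervals (red), and the same ratio without the strongly responding cells (blue diamonds). Cmpk2 is at -2.001 and the 4 IFIT genes between -1.54 and -1.16, and without those cells Ifit2, Ifit3b, Ifit3 and Ifit1 are at -1.14, -0.88, -0.84 and -0.36.

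Both neutrophil-like clusters showed the difference. The cluster led by Retnlg, S100a9 and S100a8, with 382 Trem2-/- and 482 Trem2+/+ cells, had a member median of -0.51, and the cluster led by Il1f9, Acod1 and Chil1, with 160 and 241 cells, had -0.46. Cmpk2 had -1.89 in the Retnlg cluster and -2.15 in the Il1f9 cluster, and Ifit3 -1.28 and -1.36. Isg15 and Rsad2 differed more in the Retnlg cluster, with -0.73 and -1.23, than in the Il1f9 cluster, with -0.08 and -0.39. The clusters took similar shares of the class, with the Retnlg cluster at 70.5% in the Trem2-/- library and 66.7% in the Trem2+/+ library. Neutrophil-like cells of the Trem2-/- library had medians of 2146 UMIs and 0.28% mitochondrial UMIs, and those of the Trem2+/+ library 1814 UMIs and 0.46%. With cells of at least 1000 UMIs, a limit that makes neither depth nor mitochondrial share equal between the libraries, the median was -0.45. The part of depth and mitochondrial share in the difference was not tested.

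In T cell-like cells, 27 members passed the filter and their median was -0.25, against 0.10 for all genes. Of the 27, 6 were at least 1.5-fold lower (0.719% of all genes) and 1 higher (3.94% of all genes). Ifit3 was at 11.5 CPM in the Trem2-/- library and 35.01 CPM in the Trem2+/+ library, or -1.61 (-2.13 to -1.11), and Ifit1 had -1.08 (-1.58 to -0.58). Ifi27l2a, the most abundant member in these cells, was at 415 against 631 CPM, or -0.61 (-0.70 to -0.51). Slfn5, Ifit2 and Rtp4, a receptor chaperone that also restricts flaviviruses, completed the 6, between -0.80 and -0.76. Ifit1, Ifit2 and Ifit3 were under 20 CPM in the Trem2-/- library and passed only through the Trem2+/+ library, so 3 of the 6 had to differ. With no minimum level, the median over 41 members was -0.35. The exception was Ifitm3, at 77.4 CPM in the Trem2-/- library and 34.7 CPM in the Trem2+/+ library, or 1.16 (0.831 to 1.499).

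The T cell-like clusters took different shares in the libraries, so they were also compared singly. The Cd8a cluster led by Gzmk held 50.7% of the class in the Trem2-/- library and 37.5% in the Trem2+/+ library, and the Cd8b1 cluster led by Dapl1 and Lef1 held 22.9% and 42.4%. The member median was -0.35 in the Gzmk cluster, -0.25 in the Dapl1 cluster and -0.42 in the Cd4 cluster led by Cd40lg. Isg15 had -0.31, -1.58 and -0.99 in these clusters in the same order. Ifitm3 was higher chiefly in the Cd4 cluster, at 210 CPM in the Trem2-/- library and 83.1 CPM in the Trem2+/+ library. Genes of the dissociation stress list were higher in T cell-like cells of the Trem2-/- library, with a median log2 ratio of 0.50. Of these genes, 17 of 17 were above 0, where 3731 of all 5564 genes were. Their part in the member ratios was not tested. When interferon-response genes were kept in the clustering, 459 of the 1932 T cell-like cells lay in no named class, and the member median of the rest was 0.06.

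Endothelial-like cells had 33 members at the level, with a median of -0.27, against 0.02 for all genes. Of the 33, 4 were at least 1.5-fold lower (1.16% of all genes) and 0 higher (1.19% of all genes), and 30 were below 0 (45.7% of all genes). The 4 were Ifi213, Ifi27l2a, Ifit3 and Slfn2, from -0.97 to -0.59, and Ifi213 passed the filter only through the Trem2+/+ library. Ifitm3 and Bst2, the most abundant members there, had narrow intervals, at -0.30 (-0.35 to -0.25) and -0.26 (-0.33 to -0.20). Bst2 was at 1316 CPM in the Trem2-/- library and 1580 CPM in the Trem2+/+ library. The 8 neutrophil markers summed to 53.1 CPM in endothelial-like cells of the Trem2-/- library and 240 CPM in those of the Trem2+/+ library, with 1 and 2 of the markers at 0. Genes of the dissociation stress list had a median of 0.34 in endothelial-like cells, with 17 of 18 above 0 and 6 at least 1.5-fold higher. Of all 6365 genes, 3455 were above 0 and 1.19% at least 1.5-fold higher. Slfn4, a member nearly restricted to neutrophil-like cells, was at 0.625 CPM in endothelial-like cells of the Trem2-/- library and 1.598 CPM in those of the Trem2+/+ library. Both values are far under 20 CPM. The part of the neutrophil markers and of the stress genes in the member ratios was not tested.

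Kupffer-like cells had 39 members at the level and a median of -0.17, against 0.02 for all genes. Of the 39, 5 were at least 1.5-fold lower (4.3% of all genes) and 0 higher (4.83% of all genes). The 5 were Slfn1, Ifi213, Isg15, Usp18 and Irf9, from -1.01 to -0.60. Isg15 was at 160 CPM in the Trem2-/- library and 275 CPM in the Trem2+/+ library, or -0.79 (-1.04 to -0.54), and Ifi27l2a at 1070 and 1471 CPM, or -0.46 (-0.56 to -0.36). Irf7 had -0.19 (-0.36 to -0.02). Without the 5% of cells with the highest doublet scores the median was -0.00063 over 38 members. The 8 neutrophil markers summed to 88.0 CPM in Kupffer-like cells of the Trem2-/- library and 211 CPM in those of the Trem2+/+ library, with 2 and 2 of them at 0, and their part in the ratios was not tested.

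In cDC2-like cells, 34 members had a median of -0.18, against 0.03 for all genes, with 3 at least 1.5-fold lower (3.42% of all genes) and 1 higher (4.9% of all genes). Irf7 was among the 3, at 54.9 CPM in the Trem2-/- library and 118 CPM in the Trem2+/+ library, or -1.10 (-1.56 to -0.67), with Oasl1, which in the mouse blocks translation of Irf7, at -1.14 and Lgals3bp at -0.80. Oasl1 passed the filter only through the Trem2+/+ library. The higher member was Zbp1, at 0.60 (0.15 to 1.06). The 8 neutrophil markers summed to 243.9 CPM in cDC2-like cells of the Trem2-/- library and 39.8 CPM in those of the Trem2+/+ library, with 1 and 2 of them at 0, and their part in the ratios was not tested. NK/ILC1-like cells had 21 members at a median of -0.09, against 0.03, with 1 lower (2.15% of all genes), which was Ifitm3 at -0.77, and 0 higher (3.98% of all genes).

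The remaining classes had member medians close to that of all genes. Macrophage-like cells had a median of 0.01 over 34 members, with 0 lower (1.72% of all genes) and 0 higher (2.67% of all genes). Isg15 was at 218 CPM in macrophage-like cells of the Trem2-/- library and 166 CPM in those of the Trem2+/+ library, or 0.40 (0.25 to 0.54), and Oasl1 and Phf11b had 0.41 and 0.54. Isg15 had 0.56 (0.34 to 0.78) in the macrophage-like cluster led by Ms4a7 and C1qa, and 0.20 (0.00 to 0.38) in the one led by Gpnmb and Gdf15. The Gpnmb cluster had a member median of -0.14, with Ifit3 at -1.22 (-2.04 to -0.48), and the Ms4a7 cluster 0.09, with Ifit3 at 0.28 (-0.11 to 0.67). The other cluster of this class, led by Pf4 and at a median of 694 UMIs in 51 Trem2-/- cells and 697.5 UMIs in 328 Trem2+/+ cells, had -0.49, where all genes had -0.14.

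Ly6C-high monocyte-like cells had 39 members at a median of 0.04, with 1 lower (1.42% of all genes), Isg20, and 2 higher (1.75% of all genes), Cmpk2 and Oas2. Cmpk2 was at 29.9 CPM in monocyte-like cells of the Trem2-/- library and 16.4 CPM in those of the Trem2+/+ library, or 0.86 (0.26 to 1.48). Both Cmpk2 and Oas2 passed the filter only through the Trem2-/- library, where they were high, so their direction supports nothing. B cell-like cells had 17 members at 0.05, with 0 lower (1.92% of all genes) and 0 higher (4.13% of all genes). The 24 members of cDC1-like cells were at 0.06, with 0 lower (1.45% of all genes) and 0 higher (1.62% of all genes).

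Across classes, Ifi27l2a was the member with the most even difference. Its ratio was below 0 in 10 of 10 classes, with the interval below 0 in 8, and ranged from -0.80 in neutrophil-like and endothelial-like cells to -0.07 in macrophage-like cells. Ifit3 was below 0 in 6 of the 7 classes where it passed the filter, and Ifit1 in 4 of 4. Zbp1 was below 0 in 2 of 8 classes. Isg15, below 0 in 7 of 9 classes, had its interval above 0 in macrophage-like and cDC1-like cells.

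Cells with a strong response were then counted, to ask whether the members differ through few cells or many. Each cell was thinned at random to 1000 UMIs, and cells with fewer were left out, 847 in the Trem2-/- library and 1132 in the Trem2+/+ library. A cell was called strongly responding when at least 4 of 10 core items had a UMI. The items were Ifit1, Ifit2, Ifit3 or Ifit3b, Isg15, Rsad2, Oasl1, Oasl2, Usp18, Cmpk2 and Ifi44.

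Strongly responding cells were rare. They were 45 of 5126 cells in the Trem2-/- library (0.878%, exact binomial interval 0.641 to 1.17%) and 84 of 5464 in the Trem2+/+ library (1.54%, 1.23 to 1.90%). The log2 ratio of the shares was -0.81 (-1.33 to -0.29). After thinning, neutrophil-like cells had the highest share of the 10 classes in each library. The shares were 14 of 514 cells in the Trem2-/- library (2.72%, 1.497 to 4.53%) and 33 of 640 in the Trem2+/+ library (5.16%, 3.58 to 7.17%). Their log2 ratio was -0.92 (-1.81 to -0.03). Without thinning, the shares of neutrophil-like cells were 6.64% and 8.99%, and those of all cells 6.03% and 7.84%. Neutrophil-like cells were then not the highest class. Kupffer-like cells had 19.1% and 20.7%, and endothelial-like cells 10.8% and 11.3%. Median depths were 2722 and 2398 UMIs in Kupffer-like cells, against 2146 and 1814 UMIs in neutrophil-like cells.

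**Figure D4:**
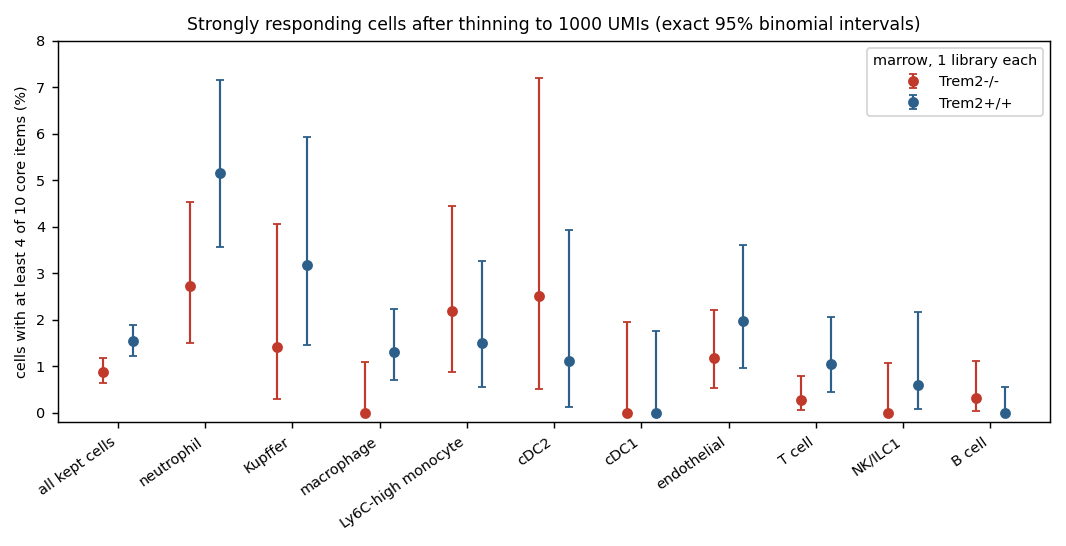
Share of cells with at least 4 of 10 core items after thinning to 1000 UMIs (vertical axis, %) in all kept cells and 10 cell classes, Trem2-/- library (red) left of the Trem2+/+ library (blue), with exact 95% binomial intervals. Neutrophil-like cells are highest, at 2.72% in the Trem2-/- library and 5.16% in the Trem2+/+ library, and the intervals of the libraries overlap in each of the 10 classes.

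The neutrophil-like clusters differed in this. In the Retnlg cluster, 7 of 357 Trem2-/- cells (1.961%) and 22 of 411 Trem2+/+ cells (5.35%) were strongly responding. In the Il1f9 cluster these were 7 of 157 (4.46%) and 11 of 229 (4.80%). In both libraries most neutrophil-like cells had no core item at this depth, 312 of 514 Trem2-/- cells and 368 of 640 Trem2+/+ cells. Strongly responding cells held 26.2% of the core UMIs of thinned neutrophil-like cells in the Trem2-/- library and 47.0% in the Trem2+/+ library.

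The other classes held few such cells after thinning. T cell-like cells had 3 of 1112 Trem2-/- and 8 of 758 Trem2+/+ cells, Kupffer-like cells 3 of 213 and 9 of 284, and endothelial-like cells 9 of 765 and 10 of 504. Ly6C-high monocyte-like cells had 7 of 320 and 6 of 397, and cDC2-like cells 3 of 119 and 2 of 181, both with the higher share in the Trem2-/- library. NK/ILC1-like cells had 0 of 344 and 2 of 331. Macrophage-like cells had 0 of 333 in the Trem2-/- library, with an exact interval up to 1.10%, and 13 of 991 in the Trem2+/+ library (1.31%). That 0 depends on the draw, since another random thinning gave 0.901% and 1.41%, and cells with exactly 3 items were 12 and 19. Without thinning, the macrophage-like shares were 15.5% and 11.3%, at median depths of 7329 and 5563 UMIs, and the T cell-like shares 0.964% and 2.78%. The cDC2-like shares without thinning were 12.4% and 15.4%, the other way round from the thinned ones. B cell-like cells, a class with low levels of the members, had 2 of 639 and 0 of 669. The cDC1-like cells had 0 of 186 and 0 of 207, with exact intervals up to 1.964% and 1.77%.

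Members outside the core were higher in strongly responding cells too, though the rule did not use them. The 47 such neutrophil-like cells of both libraries were set against 1107 others at full depth. Of 31 members outside the core, 26 had an interval above 0 and the median log2 ratio was 2.83. Such intervals were not counted over all genes. Slfn5 was 3.84 higher (3.44 to 4.24), Irf7 3.11 (2.71 to 3.50), Isg20 2.91 (2.51 to 3.30) and Slfn4 2.83 (2.62 to 3.03). Slfn2, a regulator of cell quiescence, had 0.81 (0.60 to 1.02), and Irf9 0.88 (-0.28 to 1.85). Phf11b, Phf11d, Ifi213 and Lgals3bp had no UMI in the responding cells.

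The interval was above 0 for 30 of 31 such members in Ly6C-high monocyte-like cells, 29 of 31 in T cell-like and in macrophage-like cells, 17 of 31 in Kupffer-like cells and 10 of 31 in endothelial-like cells. These counts rest on 11 to 19 responding cells a class, and were not taken over all genes. The median log2 ratio was 2.58 in monocyte-like, 2.88 in T cell-like and 2.17 in macrophage-like cells, and 0.88 in Kupffer-like and 1.04 in endothelial-like cells. Kupffer-like and endothelial-like cells with at least 4 core items thus stood less far above the other cells of their class in the rest of the members.

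Among genes outside the lists, Cxcl10, a chemokine for T cells that interferons induce, stood highest in strongly responding neutrophil-like cells, with 241 UMIs (2478 CPM) in the 47 cells and 547 UMIs (231 CPM) in the others, a log2 ratio of 3.42 (3.20 to 3.65). Trafd1, a feedback inhibitor of innate signalling, had 2.73, Plac8 2.55 and Psme2, an activator subunit of the proteasome, 1.72. These genes were chosen after their values were seen, among 379 with enough UMIs, at a median of 0.09 for all 379.

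The ratios were also taken without the strongly responding cells. Those cells were picked for high core members. In neutrophil-like, T cell-like, endothelial-like and Kupffer-like cells they were more frequent in the Trem2+/+ library. A ratio nearer to 0 for core members there follows from leaving them out. Without the called cells, the member median of neutrophil-like cells was -0.24, over 27 members instead of 32. Of the 27, 6 were at least 1.5-fold lower, where 5.37% of all genes were. Only 1 was at least 1.5-fold higher, and the share of all genes that were higher was not taken. Among members outside the core, Ifi27l2a was at 216 CPM in the Trem2-/- library and 369 CPM in the Trem2+/+ library, or -0.77 (-0.995 to -0.55), and Slfn5 at 47.7 and 75.2 CPM, or -0.66 (-1.16 to -0.17). Among core members, Cmpk2 had -1.28 (-2.10 to -0.52), Ifit2 -1.14 (-3.00 to 0.47), Ifit3b -0.88 (-2.07 to 0.23), Ifit3 -0.84 (-1.72 to -0.01), Ifit1 -0.36 (-1.27 to 0.52) and Isg15 -0.20 (-0.41 to 0.00). The median without such cells was -0.09 in T cell-like, -0.25 in endothelial-like and -0.20 in Kupffer-like cells. In cDC2-like cells it was -0.23, with 7 of 31 members at least 1.5-fold lower (3.54% of all genes). In Ly6C-high monocyte-like cells it was -0.08, with 4 of 33 lower (1.62% of all genes). In both these classes the called cells were more frequent in the Trem2-/- library. Lower ratios of core members there follow from leaving them out, so nothing is concluded from these counts.

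The pathway around the members was set beside them. The ligands were scarce. Ifnb1, interferon-beta, had 38 UMIs in all kept cells of the Trem2-/- library and 34 in those of the Trem2+/+ library, of which macrophage-like cells had 17 and 13. Ifna2 had 5 and 0 UMIs, Ifnab 1 and 0, and the other type I and type III ligands listed had none. The receptor genes differed little in neutrophil-like cells, where Ifnar1 was at 58.9 CPM in the Trem2-/- library and 63.3 CPM in the Trem2+/+ library, and Ifnar2 at 121 and 106 CPM.

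Interferon-gamma and its listed targets were higher in the Trem2-/- library in several classes. Ifng had 1930 UMIs in the Trem2-/- library and 831 in the Trem2+/+ library, mostly in T cell-like cells, where it was at 315 and 176 CPM. Of 18 listed interferon-gamma-induced GTPases and targets, 8 passed the filter in neutrophil-like cells, at a median of 0.75. All 8 were above 0, where 1798 of all 3903 genes were. Of the 8, 6 were at least 1.5-fold higher, where 3.66% of all genes were. Ifi47, an immunity-related GTPase, was at 188 CPM in neutrophil-like cells of the Trem2-/- library and 52.8 CPM in those of the Trem2+/+ library, or 1.83. Gbp2, a guanylate-binding protein that coats intracellular pathogens, was at 269 and 157 CPM, or 0.78, and the chemokine gene Cxcl9 at 64.7 and 15.6 CPM, or 2.05. In macrophage-like cells 11 passed, 8 of them at least 1.5-fold higher, where 2.67% of all genes were, with a median of 0.97. Of the higher genes, Cxcl9 and Gbp9 in neutrophil-like cells and Gbp7, Gbp8 and Igtp in macrophage-like cells were under 20 CPM in the Trem2+/+ library and passed only through the Trem2-/- library.

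The median of that list lay above the member median in 10 of 10 classes, as the plot of list medians shows. Endothelial-like cells were at -0.10 and T cell-like cells at -0.03. The list median rested on only 4 genes in cDC1-like cells and 6 in B cell-like cells. Ifi47 in B cell-like and cDC1-like, Gbp4 in Kupffer-like and Igtp in cDC2-like cells passed only through the Trem2-/- library. Some members passed only through the Trem2+/+ library. The level filter itself can therefore widen the gap between the lists. In neutrophil-like cells the 8 NK/ILC1 markers summed to 280 CPM in the Trem2-/- library and 89.3 CPM in the Trem2+/+ library, with 2 and 3 of them at 0, and the 8 T cell markers to 190 and 121 CPM, with 0 at 0. Their part in the ratios was not tested. A further list of 47 interferon-response genes outside the members, which holds genes induced by both kinds of interferon, had a median of -0.15 over 25 genes in neutrophil-like cells and 0.12 over 29 in macrophage-like cells.

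**Figure D5:**
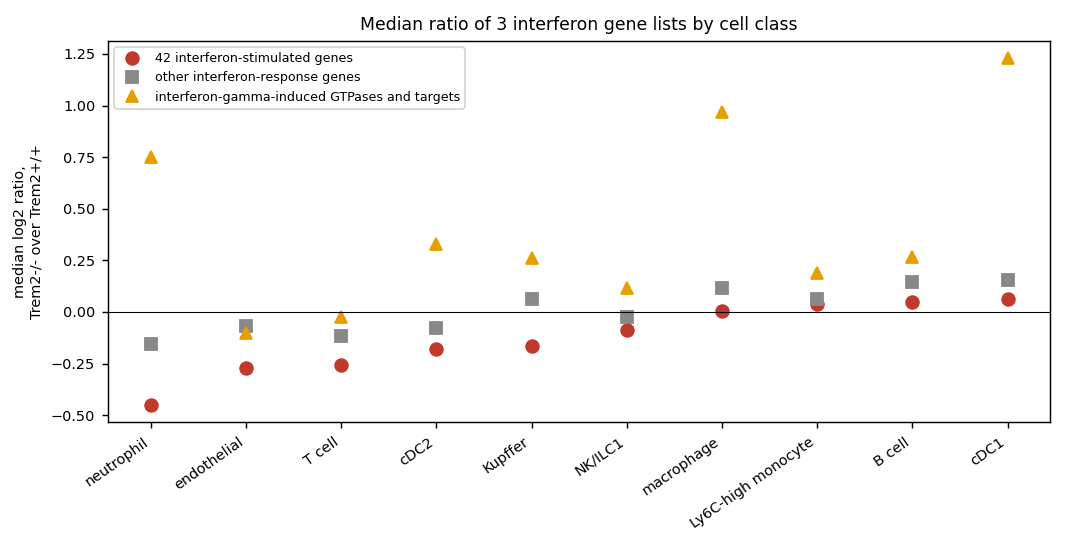
Median log2 ratio of the Trem2-/- library over the Trem2+/+ library (vertical axis) of the 42 type I interferon-stimulated genes (red circles), other interferon-response genes (grey squares) and interferon-gamma-induced GTPases and targets (orange triangles) in 10 cell classes, over genes at a mean of 20 CPM or more. In neutrophil-like cells the interferon-stimulated genes are at -0.45 and the interferon-gamma targets at 0.75.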

How the data were processed

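Raw UMI counts were deposited for each barcode. Per the file headers, Cell Ranger 5.0.1 made them. The submitters' processing notes name the build mm10. Libraries were made with 10x Genomics 5′ v2 chemistry, per the labels' protocols. The members and all gene lists, markers and tests were chosen with earlier results of these data known. The rule for other genes, which asked for at least 15 strongly responding cells of a class in each library, named none.

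A cell was kept with 200 or more genes and no more than 10% mitochondrial UMIs. Scrublet called too few doublets to have worked. For clustering, each cell was scaled to 10000 UMIs and logged. Clustering used 2000 variable genes, without Trem genes, members and other interferon-response genes, then 30 components, 15 neighbours and Leiden resolution 1 (scanpy 1.11.5). Clusters were named from listed markers, and 4 stayed unnamed. UMIs were summed per class and library. Ratios have exact conditional binomial intervals, levels exact Poisson intervals, shares exact Clopper-Pearson intervals. The intervals of share ratios are large-sample ones. Groups were not tested against each other, as each is 1 library. For a share of 0, the upper limit of the exact interval is given. Scripts were tested on simulated data. Coordinates come from GENCODE M21, promoters from RefSeq GRCm38.p6. Alternatives changed the cell filters, clustering, level filter, scaling and the rule for responding cells.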

Additional observations from a re-analysis of the deposited data

How the results depend on the processing

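No paired analysis was possible because each group is 1 library. Over 13 alternatives, the member median stayed below 0 in neutrophil-like (-0.48 to -0.24), endothelial-like (-0.30 to -0.20) and Kupffer-like cells (-0.26 to -0.00063, the last without the highest doublet scores), and over 11 alternatives in cDC2-like cells (-0.34 to -0.12). In T cell-like cells it lay between -0.39 and -0.09 except with interferon-response genes kept in the clustering, where it was 0.0598. The count of members at least 1.5-fold lower in neutrophil-like cells, 12, was 7 at a minimum of 50 CPM, where fewer members were counted, and 6 without the strongly responding cells, an alternative chosen after seeing the data. It was between 6 and 17 over the alternatives. In T cell-like cells it was 1 to 13 (6 as reported), and in endothelial-like cells 1 to 9 (4). In Kupffer-like cells it was 1 to 7 (5), and in cDC2-like cells 2 to 10 (3). The highest counts in the other classes were 10 in NK/ILC1-like, 7 in B cell-like and Ly6C-high monocyte-like, 4 in macrophage-like and 3 in cDC1-like cells. The alternatives include no minimum level. The share of all genes under each alternative is not set beside these counts, so they describe the settings only. The share of strongly responding neutrophil-like cells depended on the rule. It was 5.64% in the Trem2-/- library and 9.69% in the Trem2+/+ library with 3 core items, 7.28% and 10.8% when thinned to 2000 UMIs, 6.64% and 8.99% without thinning, and 14.6% and 17.8% when members had to reach 1% of UMIs. With 5 core items, 8 of 514 Trem2-/- cells and 18 of 640 Trem2+/+ cells (2.81%) were called. The log2 ratio of these shares was between -0.92 and -0.29 under 11 alternatives. The log2 ratio of the summed level in Ly6C-high monocyte-like cells, -0.07, was 0.0021 without the 3 most abundant members. Without replicates, no interval covers the spread between mice, and depth leaves members under 20 CPM uncertain.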
